A study of Mus musculus with 6 samples.

Results

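The genes described here are 47 genes of DNA replication and S phase, the stretch of the cell cycle in which the chromosomes are copied. They were picked by symbol from a fixed list that covers origin licensing, the replicative helicase, the polymerases, nucleotide supply, chromatin duplication and the control of S phase. All 47 were found among the 24516 gene symbols of the deposited RNA count table. All 47 also passed the filter on low counts, which left 13427 genes in all. The RNA came from an engineered mouse embryonic fibroblast line in which doxycycline turns on Mef2c, Gata4 and Tbx5, the cardiac reprogramming factors, and which carries an eGFP reporter named for the cardiac myosin gene Myh6. The groups were siH1f0, transfected with an siRNA against the linker histone gene H1f0, siJunb, transfected with an siRNA against the AP-1 subunit gene Junb, and siControl, transfected with a control siRNA. Each group held 2 libraries labelled as biological replicates, and cells of all 3 groups received doxycycline at 1 ug/mL on the day after transfection. The sample labels place the harvest at day 1 of induction, while the series text speaks of day 3 and of GFP-positive cells taken by flow sorting. How many clones the line came from is not given in the sources used here.

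DNA replication starts in G1, when the origin recognition complex, Cdc6 and Cdt1 load the ring-shaped MCM helicase onto origins. At the start of S phase cyclin E with Cdk2 and other kinases switch the helicase on by adding Cdc45 and the GINS complex, after which primase and the DNA polymerases copy both strands behind it. Many of these genes are transcribed together late in G1 by E2F factors once RB proteins are phosphorylated, so their RNA levels are widely read as a sign of cycling cells. In bulk RNA a smaller share of cells in S phase and less of these RNAs per cell cannot be told apart.

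The libraries held between 48690447 and 85979630 counts, and the lowest count of any of the 47 genes in any library was 947, for Gins3 in siJunb 2. The siRNA targets followed their labels, with H1f0 at 51.6 and 54.4 CPM (counts scaled to the library total) in siH1f0 against 798 and 742 CPM in siControl, and Junb at 10.7 and 8.89 CPM in siJunb against 39.1 and 35.7 CPM in siControl. The siControl pair stood further apart than the other pairs, with a chi-square per degree of freedom of 3.86 between the siH1f0 libraries, 3.82 between the siJunb libraries and 74.7 between the siControl libraries. That statistic sums over all tested genes, so abundant RNAs weigh heavily in it. Rn45s, a ribosomal RNA precursor, took 1.90% of the counts in siControl 1 and between 0.308% and 0.655% in the other 5 libraries. The statistic was not computed without Rn45s. For the 47 genes the median absolute log2 ratio between replicates was 0.03 in siH1f0, 0.04 in siJunb and 0.07 in siControl, and the widest gap was 0.29 for Ccne2 in siControl. Fibroblast markers were abundant, with Vim between 2541 and 2897 CPM and Col1a1 between 1234 and 1406 CPM, although Thy1 was at or near 0 and Col3a1 did not exceed 1.69 CPM.

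Most of the replication genes were highest in siH1f0 and lowest in siJunb, with siControl between them. Together the 47 genes summed to 8835 ± 9.91 CPM in siH1f0, 8042 ± 61.4 CPM in siJunb and 8216 ± 62.1 CPM in siControl (SD, n = 2 each). The group means ran in the order siJunb, siControl, siH1f0 from low to high for 28 of the 47 genes (59.6%), against 22.4% of all genes tested. For 15 of them (31.9%) the libraries of the 3 groups were also fully separate in that order, which held for 6.78% of all genes. These 15 were Mcm5, Mcm6, Mcm7, Mcm10, Cdc6, Gins3, Rfc2, Rpa2, Pola1, Pola2, Lig1, Fen1, Dtl, Gmnn and Chaf1a. The siControl libraries enter both comparisons with siControl, so those comparisons are not independent of each other.

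**Figure D1:**
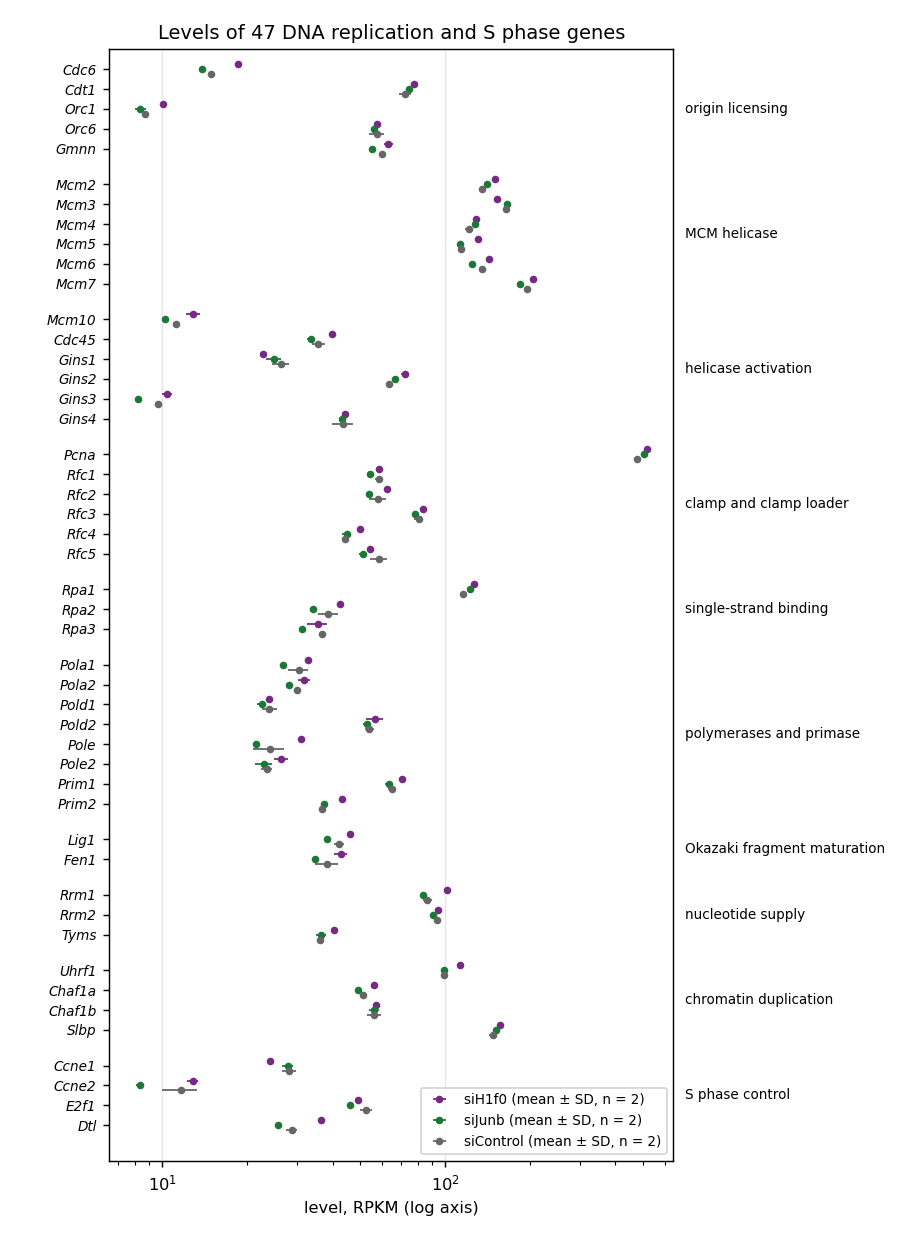
Level of each of the 47 genes in RPKM (log axis) in siH1f0, siJunb and siControl, as mean ± SD of 2 libraries, grouped by role. RPKM is counts scaled to the TMM-scaled library total and to exon length. Pcna stands highest at a mean of 499.8 RPKM over the 6 libraries and Orc1 lowest at 9.06 RPKM, and the 3 groups lie close together on this scale.

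Modest differences ran through much of the replication machinery when siH1f0 was set against siJunb. Of the 47 genes 23 (48.9%) were called higher in siH1f0 and 1, Ccne1, was called lower (2.13%), where a call means a Benjamini-Hochberg adjusted p under 0.05 over all 13427 genes in the edgeR quasi-likelihood test. Among all genes tested 12.2% were called higher and 13.8% lower in that comparison. Both siH1f0 libraries lay above both siJunb libraries for 42 of the 47 genes (89.4%), against 35.4% of all genes, and below them for 3 (6.38%), against 36.3% of all genes. The median log2 difference of the 47 genes was 0.16 (quartiles 0.08 and 0.26), against 0.0007 over all genes, and it ran from -0.20 for Ccne1 to 0.62 for Ccne2. With library totals as the only scaling 28 of the 47 genes were called higher by edgeR and 0 lower (1 at an unadjusted p under 0.05), while the split over all genes became 16.5% higher and 9.98% lower. Cdc6, Pole, Ccne2 and Dtl kept their calls whichever single library was left out, and Rrm1 lost its call only without siJunb 1. Leaving out a single siH1f0 or siJunb library was enough to end each of the other calls. This held for 3 or 4 of those 4 libraries, left out 1 at a time. The count of calls among the 47 moved with that over all genes. Without siJunb 1, siJunb 2, siH1f0 1 or siH1f0 2 the genes called higher numbered 4, 5, 7 and 5 (8.51% to 14.9% of the 47) and none was called lower (edgeR), while 4.12% to 4.46% of all genes were called higher and 5.09% to 5.51% lower. Without siControl 1 they numbered 34 higher (72.3%) and 2 lower, against 22.0% and 25% of all genes, and without siControl 2 they numbered 36 higher (76.6%) and 2 lower, against 22.4% and 24.4% of all genes.

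Against siControl, siH1f0 had 7 of the 47 genes called higher (14.9%), namely Cdc6, Mcm5, Pole, Prim2, Rrm1, Uhrf1 and Dtl. Among all genes tested 2.27% were called higher and 4.27% lower. In the edgeR fit of all 6 libraries 0 of the 47 were called lower, 3 of them being lower at an unadjusted p under 0.05, and limma-voom also called 0. Ccne1 was called lower by DESeq2 (adjusted p = 0.0436) and by edgeR with no filter on counts (adjusted p = 0.0143). In the main edgeR fit it was not called (adjusted p = 0.0679). Its log2 difference ran from -0.2821 without siControl 2 to -0.1637 without siControl 1 over all its alternatives. Both siH1f0 libraries lay above both siControl libraries for 33 genes (70.2%), against 25.4% of all genes, and below them for 5 (10.6%), against 25.2% of all genes. The median log2 difference was 0.11 (quartiles 0.04 and 0.17), against 0.0034 over all genes, from -0.22 for Ccne1 to 0.37 for Pole. Each of the 7 edgeR calls was lost in some of the fits with 1 library left out. The median log2 difference was 0.1105 without siH1f0 1 and 0.1112 without siH1f0 2. It was 0.1135 without siJunb 1 or siJunb 2, 0.1355 without siControl 1 and 0.0761 without siControl 2.

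In siJunb 3 of the 47 genes (6.38%), Ccne2, Gins3 and E2f1, were called lower than in siControl, against 7.82% of all genes tested, so the share of calls among them was near the background. None was called higher in the fits of all 6 libraries by edgeR, DESeq2 or limma-voom, and 0 were higher at an unadjusted p under 0.05, whereas 8.63% of all genes were called higher. Both siJunb libraries lay below both siControl libraries for 21 genes (44.7%), against 28.4% of all genes, and above them for 7 (14.9%), against 29.6% of all genes. The median log2 difference was -0.06 (quartiles -0.12 and -0.0006), against 0.0024 over all genes, from -0.48 for Ccne2 to 0.09 for Rpa1. With library totals as the only scaling 8 were called lower, and the split over all genes moved to 6.58% higher and 10.2% lower. Each of the 3 edgeR calls was lost in some of the fits with 1 library left out. The median log2 difference was -0.0595 without siJunb 1 and -0.0629 without siJunb 2. It was -0.0634 without siH1f0 1, -0.0637 without siH1f0 2, -0.0313 without siControl 1 and -0.0932 without siControl 2.

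**Figure D2:**
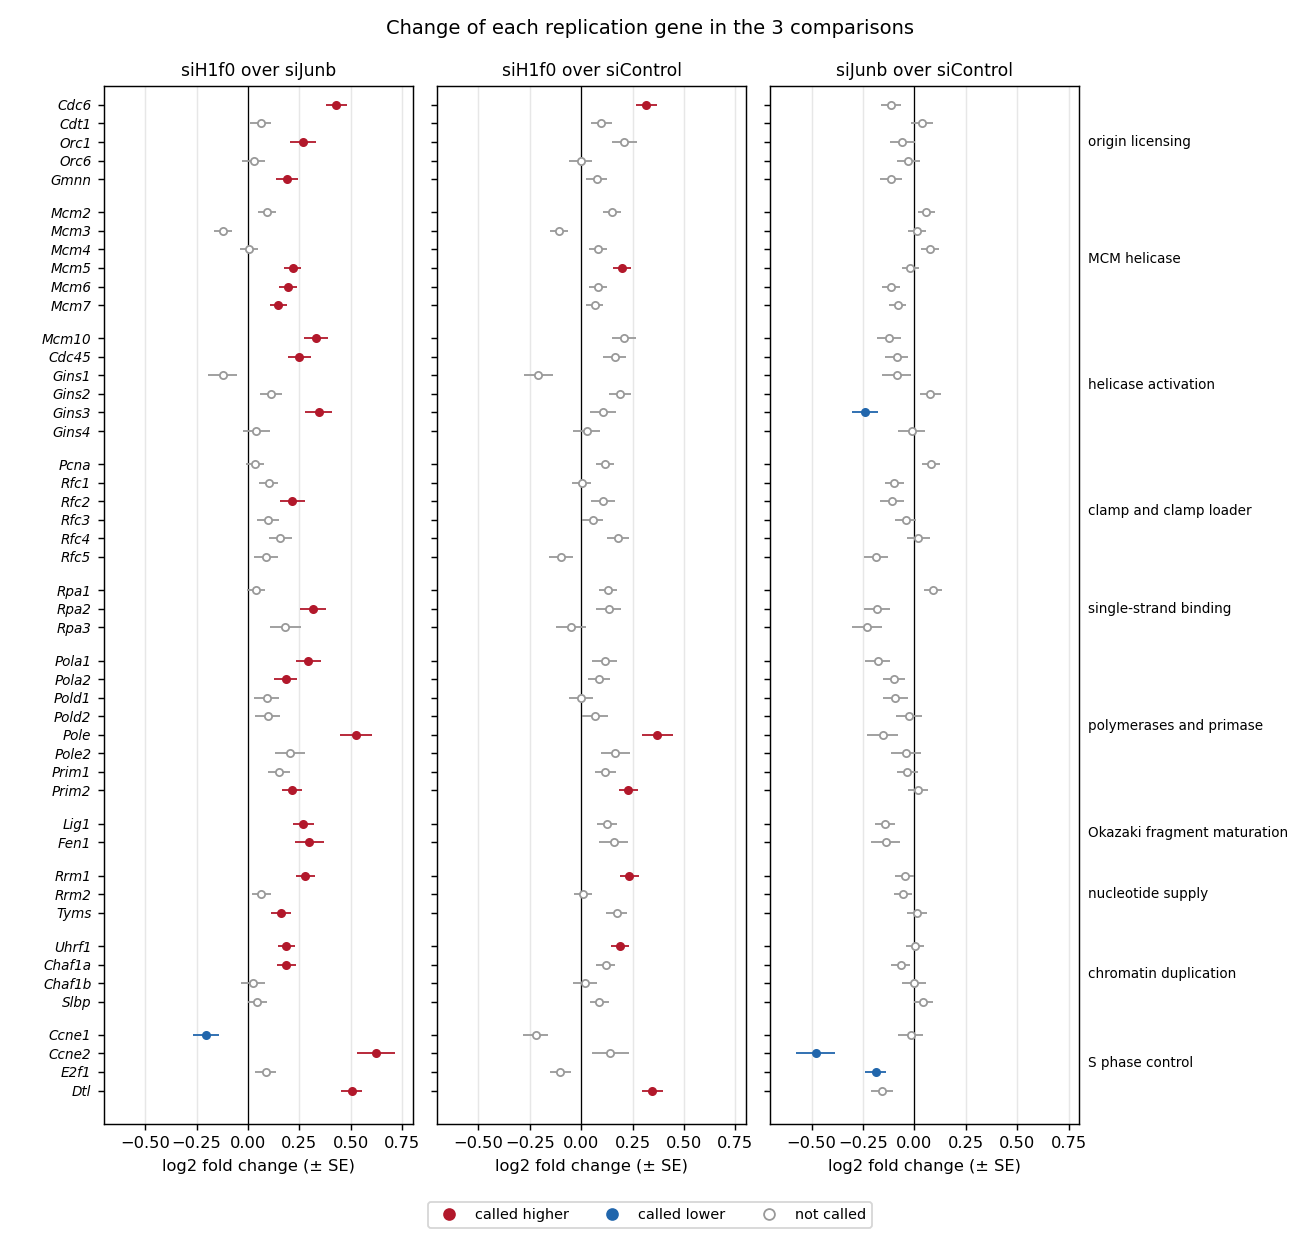
Log2 fold change of each gene with its standard error in the 3 comparisons, grouped by role, with filled red points for genes called higher, filled blue points for genes called lower and open points for genes not called. In siH1f0 over siJunb 44 of the 47 points lie right of 0, while in siJunb over siControl 12 of 47 do.

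**Figure D3:**
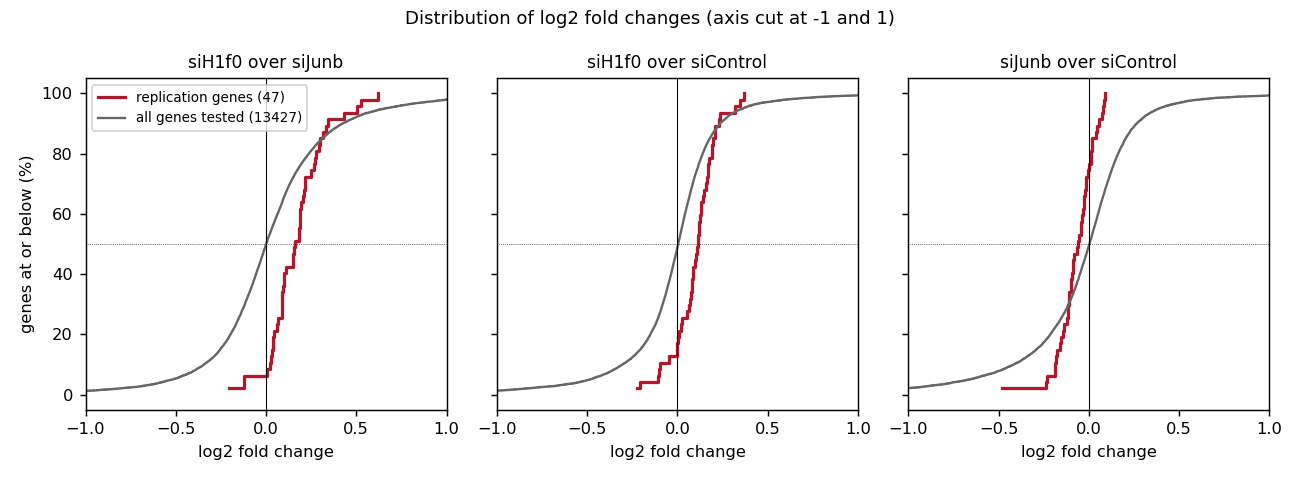
Cumulative share of genes (vertical axis, %) at or below each log2 fold change (horizontal axis) for the 47 replication genes and for all 13427 genes tested, in the 3 comparisons. The replication genes cross the 50% line at 0.16 in siH1f0 over siJunb, 0.11 in siH1f0 over siControl and -0.06 in siJunb over siControl, while all genes cross it at 0.0007, 0.0034 and 0.0024.

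Sequences of 6 promoters are shown because their genes, Dtl, Cdc6, Gins3, Mcm5, Rrm1 and Uhrf1, were called in 2 of the 3 comparisons and had an entry in the RefSeq promoter table (build GRCm38.p6). Each runs 5′ to 3′ on the gene's strand, from 250 bases before the table's start site to 50 bases after it, and capitals mark E2F-type letters found by search. The windows are chr1:191575495-191575794 on the minus strand for Dtl, and on the plus strand chr11:98907901-98908200 for Cdc6, chr8:95633309-95633608 for Gins3, chr8:75109259-75109558 for Mcm5, chr7:102441445-102441744 for Rrm1 and chr17:56303087-56303386 for Uhrf1.
Dtl: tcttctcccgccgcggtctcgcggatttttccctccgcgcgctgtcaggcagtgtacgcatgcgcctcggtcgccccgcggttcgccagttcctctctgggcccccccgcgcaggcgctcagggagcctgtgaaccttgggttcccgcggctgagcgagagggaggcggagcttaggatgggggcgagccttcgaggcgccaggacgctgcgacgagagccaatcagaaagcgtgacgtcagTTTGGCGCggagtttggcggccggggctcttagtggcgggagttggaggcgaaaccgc
Cdc6: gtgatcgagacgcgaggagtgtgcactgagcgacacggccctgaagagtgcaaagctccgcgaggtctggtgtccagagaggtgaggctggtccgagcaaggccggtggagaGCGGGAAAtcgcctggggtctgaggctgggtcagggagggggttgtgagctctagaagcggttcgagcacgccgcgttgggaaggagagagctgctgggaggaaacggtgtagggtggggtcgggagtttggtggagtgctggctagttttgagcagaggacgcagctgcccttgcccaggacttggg
Gins3: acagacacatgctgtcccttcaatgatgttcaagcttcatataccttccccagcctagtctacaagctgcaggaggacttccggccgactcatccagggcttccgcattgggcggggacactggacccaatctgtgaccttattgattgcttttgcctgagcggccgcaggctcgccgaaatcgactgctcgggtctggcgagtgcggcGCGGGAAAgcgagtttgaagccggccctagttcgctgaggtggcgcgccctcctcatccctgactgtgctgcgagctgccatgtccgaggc
Mcm5: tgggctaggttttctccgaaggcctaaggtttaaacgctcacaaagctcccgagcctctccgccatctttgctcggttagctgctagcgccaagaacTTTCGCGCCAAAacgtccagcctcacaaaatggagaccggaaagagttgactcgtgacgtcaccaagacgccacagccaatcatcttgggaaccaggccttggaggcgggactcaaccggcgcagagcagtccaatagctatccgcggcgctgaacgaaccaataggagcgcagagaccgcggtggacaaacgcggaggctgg
Rrm1: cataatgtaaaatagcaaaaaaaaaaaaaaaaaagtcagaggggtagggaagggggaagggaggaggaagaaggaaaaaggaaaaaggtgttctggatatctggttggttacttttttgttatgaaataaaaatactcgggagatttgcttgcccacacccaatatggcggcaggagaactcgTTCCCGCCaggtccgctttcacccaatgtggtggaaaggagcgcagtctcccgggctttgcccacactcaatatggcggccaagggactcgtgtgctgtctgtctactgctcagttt
Uhrf1: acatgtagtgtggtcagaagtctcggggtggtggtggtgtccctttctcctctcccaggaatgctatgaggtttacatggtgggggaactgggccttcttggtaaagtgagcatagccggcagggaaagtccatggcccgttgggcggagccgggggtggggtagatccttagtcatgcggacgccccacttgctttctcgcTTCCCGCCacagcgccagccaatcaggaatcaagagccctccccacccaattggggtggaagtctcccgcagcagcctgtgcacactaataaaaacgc

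The search used 6 E2F-type words on both strands, TTTGGCGC, TTTCGCGC, TTTCCCGC, TTTGCCGC, GGCGGGAA and GGCGCGAA, of which neighbouring matches can overlap. Positions were counted from 1 at the start site used for each window and from -1 just before it. The match began at -8 in Dtl, -41 in Gins3, -48 in Uhrf1, -67 in Rrm1 and -138 in Cdc6. In Mcm5 3 overlapping matches began at -153, -152 and -149. The Cdc6 window lies wholly inside the annotated gene span, which begins at 98907709, so its match is not upstream of the annotated gene. The Mcm5 gene span begins at 75109468, inside its window and before the start site used. Promoter windows were found for 38 of the 47 genes, and 20 of these 38 (52.6%) held an E2F-type word, against 4.87% of 27025 genes in the table and 8.83% of the 10214 tested genes with a window. Among the genes called higher in siH1f0 over siJunb 13 of 18 (72.2%) held one, and among those not called in that comparison 7 of 19 (36.8%) did, a contrast that was not tested. The box CCAAT was in 65.8% of the 38 genes, against 41.1% of all genes in the table and 43.1% of the tested genes with a window. The cell cycle element CHR, searched as TTTGAA, was in 13.2% of the 38, against 20.2% of all and 14.0% of the tested genes. The AP-1 letters TGACTCA or TGAGTCA were in 0 of 38, against 5.95% of all and 4.62% of the tested genes, which says only that these letters are not in these windows. The median G and C content was 62.2% over the windows of the 38 genes, 60.7% over those of the tested genes and 52.7% over all windows in the table. Mcm4, Gins1, Gins2, Gins4, Rfc2, Pole, Prim2, Ccne2 and Gmnn had no window.

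Origin licensing was represented by Orc1 and Orc6 of the origin recognition complex, the loaders Cdc6 and Cdt1, and geminin (Gmnn), which holds Cdt1 inactive outside G1. Of these 5, Cdc6, Orc1 and Gmnn were called higher in siH1f0 over siJunb. Cdc6 (chromosome 11, 98907709 to 98923942) was at 88.5 and 85.9 CPM in siH1f0, 63.8 and 65.7 in siJunb, and 69.5 and 70.6 in siControl. The siH1f0 libraries lay above both other groups, and siJunb lay below siControl with no overlap. Cdc6 was 1.35-fold higher in siH1f0 than in siJunb, a log2 difference of 0.43 ± 0.05 (SE; edgeR adjusted p = 0.000573, at most 0.0187 with 1 library left out). It was also higher in siH1f0 than in siControl, by 0.32 ± 0.05 (adjusted p = 0.00836, at most 0.163 with 1 library left out), whereas siJunb differed from siControl by -0.11 ± 0.05 (adjusted p = 0.161). Orc1, the largest subunit of its complex and the lowest of the 47 RNAs per length (RPKM), was at 30.7 and 30.1 CPM in siH1f0, 26.00 and 24.4 in siJunb, and 26.7 and 25.9 in siControl. Its siH1f0 libraries were above all 4 others, while siJunb and siControl overlapped. It differed by 0.27 ± 0.06 between siH1f0 and siJunb (adjusted p = 0.0142, at most 0.143 with 1 library left out). Gmnn was at 60.01 and 63.2 CPM in siH1f0, 53.8 and 54.3 in siJunb, and 58.9 and 58.1 in siControl, with the 3 groups separate. The log2 difference of Gmnn in siH1f0 over siJunb was 0.19 ± 0.05 (adjusted p = 0.0304, at most 0.243 with 1 library left out). Cdt1 and Orc6 were not called in any comparison, with differences of 0.06 ± 0.05 and 0.03 ± 0.06 in siH1f0 over siJunb. Per length, the Cdt1 RNA exceeded that of its inhibitor in every library, with an RPKM ratio of Cdt1 to Gmnn of 1.28 and 1.18 in siH1f0, 1.36 and 1.325 in siJunb, and 1.24 and 1.18 in siControl. An annotated gene on the opposite strand covers 10.8% of the exon bases of Orc1, and the strand setting of the counts is not given in the sources used here.

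The MCM helicase is a ring of 6 proteins, Mcm2 to Mcm7, that unwinds DNA at the fork. Its genes were among the most abundant of the 47, from a mean of 119 RPKM for Mcm5 to 194 RPKM for Mcm7, a ratio of 1.63. They did not move as 1 block: Mcm5, Mcm6 and Mcm7 were called higher in siH1f0 over siJunb, and Mcm2, Mcm3 and Mcm4 were not called in any comparison. Mcm5 (chromosome 8, 75109468 to 75128439) was at 449.8 and 452 CPM in siH1f0, 388 and 387 in siJunb, and 392 and 394 in siControl. Its siH1f0 libraries stood above the rest, and siJunb lay just below siControl with no overlap. The log2 difference of Mcm5 was 0.22 ± 0.04 in siH1f0 over siJunb (adjusted p = 0.006, at most 0.087 with 1 library left out) and 0.20 ± 0.04 in siH1f0 over siControl (adjusted p = 0.0284, at most 0.281). Mcm6 was at 631 and 634 CPM in siH1f0, 544 and 561 in siJunb, and 607 and 588 in siControl. Mcm7 was at 489 and 489 CPM in siH1f0, 441 and 441 in siJunb, and 471 and 463 in siControl. For both genes the groups were separate and in the order siJunb, siControl, siH1f0. Their log2 differences in siH1f0 over siJunb were 0.19 ± 0.04 for Mcm6 (adjusted p = 0.0128, at most 0.16 with 1 library left out) and 0.15 ± 0.04 for Mcm7 (adjusted p = 0.0314, at most 0.215). Mcm3 leaned the other way, at 441 and 440.3 CPM in siH1f0, 472 and 486 in siJunb, and 484 and 467 in siControl, with siH1f0 below both other groups. Its difference of -0.12 ± 0.04 in siH1f0 over siJunb did not pass the test (adjusted p = 0.0764). Mcm2 and Mcm4 differed by 0.09 ± 0.04 and 0.01 ± 0.04 in the same comparison.

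Helicase activation needs Cdc45 and the 4 GINS subunits, which join the MCM ring to form the active helicase, and Mcm10, which helps the assembled helicase start moving. Mcm10, Cdc45 and Gins3 were called higher in siH1f0 over siJunb. Gins3 (chromosome 8, 95633559 to 95645059) was at 24.4 and 25.9 CPM in siH1f0, 19.8 and 19.8 in siJunb, and 23.9 and 22.9 in siControl. Both siJunb libraries were below all others, and siH1f0 was above siControl without overlap. Gins3 fell in siJunb relative to siControl, a log2 difference of -0.24 ± 0.06 (adjusted p = 0.0374, at most 0.206 with 1 library left out). It was 1.27-fold higher in siH1f0 than in siJunb, a log2 difference of 0.34 ± 0.06 (adjusted p = 0.00562, at most 0.0737 with 1 library left out). Mcm10 was at 48.7 and 52.8 CPM in siH1f0, 40.3 and 40.4 in siJunb, and 43.7 and 44.3 in siControl, again with separate groups. It differed by 0.33 ± 0.06 between siH1f0 and siJunb (adjusted p = 0.00425, at most 0.0647 with 1 library left out). Cdc45 was at 85.8 and 85.2 CPM in siH1f0, 70.2 and 73.6 in siJunb, and 79.2 and 73.5 in siControl. Its siH1f0 libraries were above the other 4, and siJunb overlapped siControl. Its log2 difference in siH1f0 over siJunb was 0.25 ± 0.06 (adjusted p = 0.0132, at most 0.144 with 1 library left out). The GINS genes, whose proteins work as 1 complex, spread widely: in siH1f0 over siJunb the log2 differences were -0.12 ± 0.07 for Gins1, 0.11 ± 0.05 for Gins2, 0.34 ± 0.06 for Gins3 and 0.04 ± 0.07 for Gins4. Gins1, at 26.3 and 26.4 CPM in siH1f0, 29.9 and 27.5 in siJunb, and 31.9 and 29.01 in siControl, was lowest in siH1f0 but was not called. Gse1 on the opposite strand covers 67.3% of all annotated exon bases of Gins2, and the 2758 shared bases exceed the 1038 bases of its counted length.

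The sliding clamp Pcna, which tethers polymerases to DNA, and the clamp loader genes Rfc1 to Rfc5 gave a single call. Rfc2, a small loader subunit, was at 93.1 and 96.2 CPM in siH1f0, 80.5 and 82.5 in siJunb, and 92.1 and 83.7 in siControl. Its siH1f0 libraries were the highest and its siJunb libraries the lowest, without overlap. The log2 difference of Rfc2 was 0.22 ± 0.06 in siH1f0 over siJunb (adjusted p = 0.028, at most 0.198 with 1 library left out). Lat2 on the opposite strand covers 15.1% of its exon bases. Pcna, the most abundant RNA of the 47, was at 648 and 655 CPM in siH1f0, 633 and 639.6 in siJunb, and 611 and 592 in siControl. Both knockdowns lay above siControl, but the differences of 0.12 ± 0.04 in siH1f0 and 0.08 ± 0.04 in siJunb did not pass the test (adjusted p = 0.152 and 0.229). Pcna has 2 processed pseudogenes in the annotation, and how reads shared with them were counted is not given in the sources used here. Rfc1, Rfc3, Rfc4 and Rfc5 differed by 0.10 ± 0.05, 0.10 ± 0.05, 0.16 ± 0.05 and 0.09 ± 0.06 in siH1f0 over siJunb, all positive and none called.

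Replication protein A coats the single strands that the helicase leaves behind. Of its 3 subunit genes Rpa2 was called higher in siH1f0 over siJunb. Rpa2 was at 75.9 and 75.4 CPM in siH1f0, 59.8 and 61.9 in siJunb, and 72.8 and 65.1 in siControl. The groups were separate, in the order siJunb, siControl, siH1f0. The log2 difference of Rpa2 in siH1f0 over siJunb was 0.31 ± 0.06 (adjusted p = 0.0076, at most 0.0906 with 1 library left out). Rpa1, which encodes the largest subunit, was at 388 and 395 CPM in siH1f0, 381 and 382 in siJunb, and 363 and 354 in siControl, a difference of 0.04 ± 0.04. Rpa3 was at 21.3 and 23.9 CPM in siH1f0, 19.5 and 20.3 in siJunb, and 23.4 and 23.3 in siControl, a difference of 0.18 ± 0.07 in siH1f0 over siJunb (adjusted p = 0.105).

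Polymerase and primase genes gave 4 calls of 8 in siH1f0 over siJunb, namely Pole, Pola1, Pola2 and Prim2, all higher. Pole (chromosome 5, 110286319 to 110337468), the catalytic subunit of the leading strand polymerase, was at 223 and 219 CPM in siH1f0, 151 and 156 in siJunb, and 156 and 186 in siControl. The siH1f0 libraries were above the 4 others, while siControl 1 lay among the siJunb libraries and siControl 2 above them. Pole was 1.44-fold higher in siH1f0 than in siJunb, a log2 difference of 0.53 ± 0.08 (adjusted p = 0.00175, at most 0.0323 with 1 library left out). In siH1f0 over siControl it differed by 0.37 ± 0.08 (adjusted p = 0.0272, at most 0.222 with 1 library left out), the largest difference of the 47 in that comparison. Pole2, its partner subunit, differed by 0.21 ± 0.07 and was not called (adjusted p = 0.0705). Pola1, the catalytic subunit of the polymerase that starts each new strand, was at 177 and 174 CPM in siH1f0, 144 and 142 in siJunb, and 153 and 172 in siControl. Pola2, its accessory subunit, was at 94.4 and 88.1 CPM in siH1f0, 79.04 and 81.8 in siJunb, and 86.2 and 85.9 in siControl. In both genes siH1f0 was highest and siJunb lowest, without overlap between groups. Their differences in siH1f0 over siJunb were 0.29 ± 0.06 for Pola1 (adjusted p = 0.00888, at most 0.0918 with 1 library left out) and 0.18 ± 0.05 for Pola2 (adjusted p = 0.0373, at most 0.302).

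Prim2 (chromosome 1, 33453808 to 33669808), the large primase subunit that helps lay the RNA primer, was at 85.5 and 85.1 CPM in siH1f0, 73.7 and 73.5 in siJunb, and 73.5 and 71.96 in siControl. The siJunb and siControl libraries lay within 2 CPM of each other, and both siH1f0 libraries were above them. Prim2 differed by 0.21 ± 0.05 in siH1f0 over siJunb (adjusted p = 0.0128, at most 0.121 with 1 library left out) and by 0.23 ± 0.05 in siH1f0 over siControl (adjusted p = 0.0275, at most 0.274). Prim1, the catalytic primase subunit, differed by 0.15 ± 0.05 in siH1f0 over siJunb and was not called (adjusted p = 0.0651). The lagging strand polymerase genes Pold1 and Pold2 differed by 0.09 ± 0.06 and 0.10 ± 0.06 in siH1f0 over siJunb and were not called.

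Okazaki fragments, the short pieces of the lagging strand, are trimmed by Fen1 and sealed by Lig1, and both genes were called higher in siH1f0 over siJunb. Lig1 was at 161 and 163 CPM in siH1f0, 133 and 137 in siJunb, and 153 and 145 in siControl. Fen1 was at 98.7 and 91.4 CPM in siH1f0, 76.7 and 77.9 in siJunb, and 90.8 and 79.4 in siControl. Each gene had its siH1f0 libraries highest and its siJunb libraries lowest, with siControl between. Lig1 differed by 0.27 ± 0.05 (adjusted p = 0.00526, at most 0.0847 with 1 library left out) and Fen1 by 0.30 ± 0.07 (adjusted p = 0.0165, at most 0.157). In siJunb over siControl they differed by -0.14 ± 0.05 and -0.14 ± 0.07, which did not pass the test. An antisense gene covers 78.8% of the exon bases of Fen1, and reads of the 2 genes cannot be told apart without strand.

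Nucleotide supply was represented by the ribonucleotide reductase subunits Rrm1 and Rrm2, which make deoxynucleotides, and by Tyms, which makes thymidylate. Rrm1 (chromosome 7, 102441695 to 102469771) was at 406 and 406 CPM in siH1f0, 331 and 338 in siJunb, and 337 and 354 in siControl. The siH1f0 libraries were above the rest, and siJunb overlapped siControl. Rrm1 was higher in siH1f0 than in siJunb by 0.28 ± 0.05 (adjusted p = 0.003, at most 0.0606, reached without siJunb 1, the single left-out library that ended the call). It was higher in siH1f0 than in siControl by 0.23 ± 0.05 (adjusted p = 0.0228, at most 0.244 with 1 library left out). Rrm2, the subunit whose level usually limits the enzyme, was at 208 and 204 CPM in siH1f0, 196 and 197 in siJunb, and 203 and 206 in siControl. It was not called and differed by 0.07 ± 0.04 in siH1f0 over siJunb. The RPKM ratio of Rrm1 to Rrm2 was 1.065 and 1.09 in siH1f0, 0.92 and 0.935 in siJunb, and 0.905 and 0.9365 in siControl. Tyms was at 154 and 155 CPM in siH1f0, 135 and 143 in siJunb, and 137 and 138 in siControl, with siH1f0 above the rest. It differed by 0.16 ± 0.05 in siH1f0 over siJunb (adjusted p = 0.0437, at most 0.336 with 1 library left out), and it has a processed pseudogene in the annotation.

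Chromatin has to be copied with the DNA, and 2 of the 4 genes for this, Uhrf1 and Chaf1a, were called higher in siH1f0 over siJunb. Uhrf1 (chromosome 17, 56303337 to 56323486), which brings the maintenance DNA methyltransferase to newly copied DNA, was at 414 and 409 CPM in siH1f0, 363 and 360.3 in siJunb, and 362 and 360.2 in siControl. The siJunb and siControl libraries coincided within 3 CPM, below both siH1f0 libraries. Uhrf1 was higher in siH1f0 by 0.19 ± 0.04 over siJunb (adjusted p = 0.0128, at most 0.143 with 1 library left out) and by 0.19 ± 0.04 over siControl (adjusted p = 0.0345, at most 0.337). Chaf1a, the large subunit of the histone chaperone CAF-1, was at 184 and 186 CPM in siH1f0, 164 and 161 in siJunb, and 172 and 168 in siControl, with separate groups. It differed by 0.19 ± 0.05 in siH1f0 over siJunb (adjusted p = 0.0175, at most 0.174 with 1 library left out), and Ubxn6 on the opposite strand covers 52.5% of its exon bases. That share is of all annotated exon bases of Chaf1a, and the 4648 shared bases exceed the 3308 bases of its counted length. Chaf1b, the partner of Chaf1a, overlapped in all 3 groups and differed by 0.02 ± 0.06. Slbp, which binds the stem-loop of replication-dependent histone mRNAs, differed by 0.05 ± 0.05 in siH1f0 over siJunb and was not called in any comparison.

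The genes that control entry into and passage through S phase included the highest log2 difference of the 47 in siH1f0 over siJunb, for Ccne2, and the single gene called lower there, Ccne1. Ccne2 (chromosome 4, 11190433 to 11204779), which encodes cyclin E2, was at 39.97 and 42.6 CPM in siH1f0, 26.3 and 27.4 in siJunb, and 33.7 and 41.2 in siControl. The siJunb libraries were below all others, and siControl 2 fell between the siH1f0 libraries. Ccne2 fell in siJunb relative to siControl, a log2 difference of -0.48 ± 0.09 (adjusted p = 0.011, at most 0.114 with 1 library left out), and was 1.54-fold higher in siH1f0 than in siJunb, a difference of 0.62 ± 0.09 (adjusted p = 0.00191, at most 0.0322). Its difference in siH1f0 over siControl was 0.14 ± 0.09 (adjusted p = 0.401). Ccne1, which encodes cyclin E1, was at 46.9 and 47.4 CPM in siH1f0, 52.6 and 56.1 in siJunb, and 57.1 and 52.8 in siControl. Both siH1f0 libraries were the lowest, and siJunb overlapped siControl. Ccne1 was lower in siH1f0 than in siJunb, a log2 difference of -0.20 ± 0.06 (adjusted p = 0.0399, at most 0.272 with 1 library left out), a call that was also lost with library totals as the only scaling. The RPKM ratio of Ccne2 to Ccne1 was 0.518 and 0.546 in siH1f0, 0.303 and 0.297 in siJunb, and 0.359 and 0.474 in siControl. Ints8 on the opposite strand covers 17.4% of the exon bases of Ccne2.

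Dtl (chromosome 1, 191537356 to 191575544) encodes the substrate receptor of a ubiquitin ligase that destroys Cdt1 during S phase. It was at 154 and 156 CPM in siH1f0, 111 and 108 in siJunb, and 118 and 126 in siControl. The 3 groups were separate, in the order siJunb, siControl, siH1f0. Dtl was 1.42-fold higher in siH1f0 than in siJunb, a log2 difference of 0.50 ± 0.05 (adjusted p = 0.000292, at most 0.0112 with 1 library left out), the smallest adjusted p of the 47 genes in any comparison. It was higher in siH1f0 than in siControl by 0.35 ± 0.05 (adjusted p = 0.00626, at most 0.109), and siJunb differed from siControl by -0.16 ± 0.05 (adjusted p = 0.0698). E2f1, an activator of S phase genes, was at 153 and 151 CPM in siH1f0, 145 and 142 in siJunb, and 169 and 157 in siControl. Its highest libraries were those of siControl, above both knockdowns. E2f1 fell in siJunb relative to siControl, a log2 difference of -0.19 ± 0.05 (adjusted p = 0.0394, at most 0.269 with 1 library left out), and differed by -0.10 ± 0.05 in siH1f0 over siControl (adjusted p = 0.28).

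**Figure D4:**
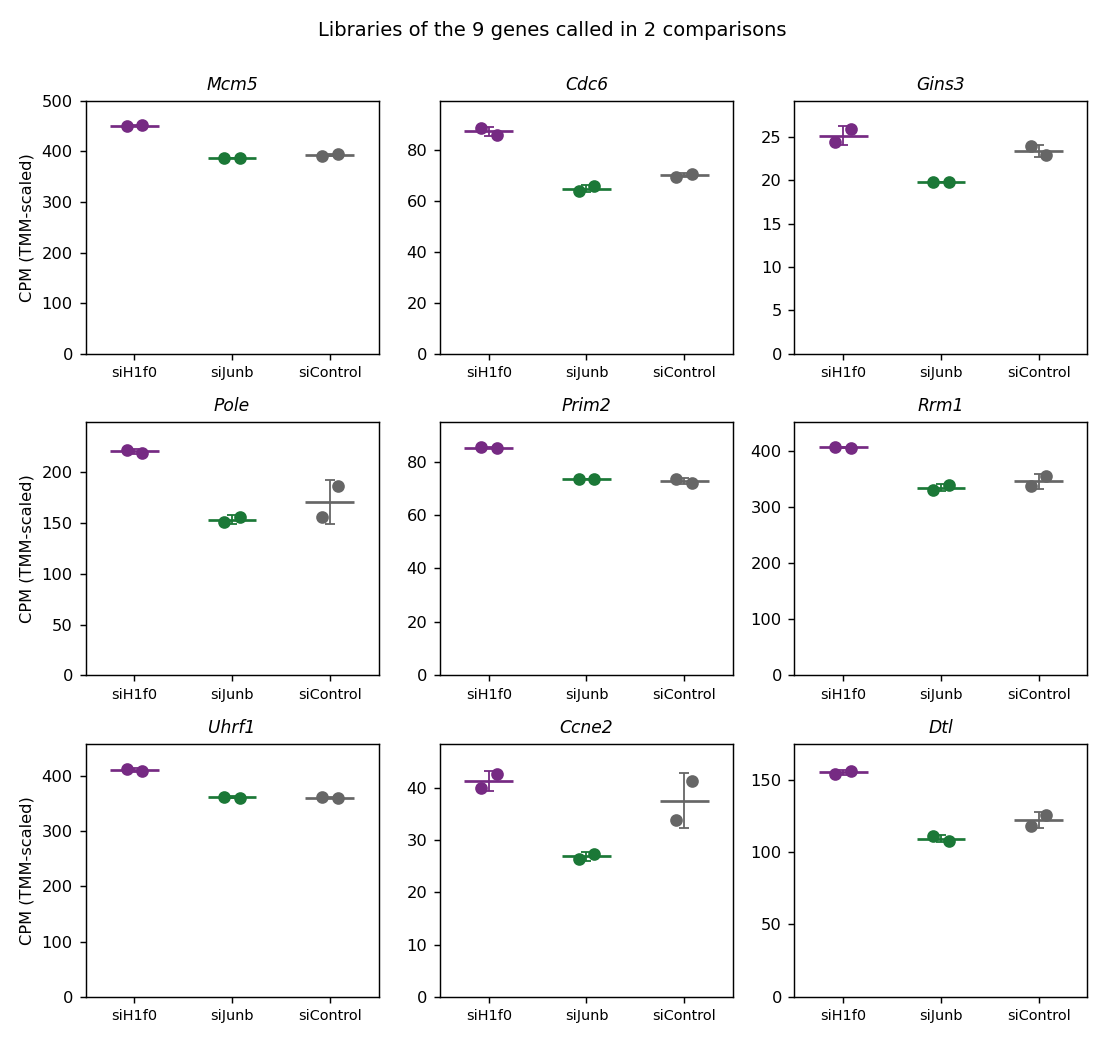
CPM of the 9 genes called in 2 of the 3 comparisons in each library (points, vertical axis from 0), with the group mean (line) and SD (bar) for siH1f0, siJunb and siControl, 2 libraries each. The siH1f0 points lie above the siJunb points in all 9 panels, and the siControl points of Pole and Ccne2 lie far apart, at 156 and 186 CPM and at 33.7 and 41.2 CPM.

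Over the 3 comparisons 25 of the 47 genes were called at least once (53.2%), against 31.4% of all genes tested. In 2 comparisons 9 of the 47 were called (19.1%), against 14.9% of all genes, and 22 were called in none. These 22 were Orc6, Cdt1, Mcm2, Mcm3, Mcm4, Gins1, Gins2, Gins4, Pcna, Rfc1, Rfc3, Rfc4, Rfc5, Rpa1, Rpa3, Pold1, Pold2, Pole2, Prim1, Rrm2, Chaf1b and Slbp. The genes not called in siH1f0 over siJunb ranged from -0.12 for Gins1 to 0.21 for Pole2. The smallest change called in that comparison was 0.15 ± 0.04 for Mcm7.

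Genes outside the 47 were read in 7 further lists, whose counts stand against the shares of all genes given above, 12.2% higher and 13.8% lower in siH1f0 over siJunb, 2.27% and 4.27% in siH1f0 over siControl, and 8.63% and 7.82% in siJunb over siControl. Of 32 other origin and fork genes 17 were called higher and 1 lower in siH1f0 over siJunb, with a median log2 difference of 0.19. The highest of the named genes was Chtf18, part of an alternative clamp loader, at 41.8 and 41.6 CPM in siH1f0, 27.2 and 25.5 in siJunb, and 33.2 and 33.99 in siControl, a difference of 0.66 ± 0.06. In siJunb over siControl 6 of the 32 were called lower, including the helicase gene Recql4 (-0.35 ± 0.06), the checkpoint mediator Clspn (-0.28 ± 0.06) and the kinase gene Cdc7 (-0.23 ± 0.05). In siH1f0 over siControl Chtf18 (0.31 ± 0.06) and Mms22l (0.26 ± 0.05) were called higher. Of 20 replication stress and repair genes 11 were called higher and 1 lower in siH1f0 over siJunb, 7 higher in siH1f0 over siControl, and 4 lower in siJunb over siControl. Exo1, an exonuclease of mismatch repair and end resection, was at 28.6 and 28.8 CPM in siH1f0, 15.8 and 14.3 in siJunb, and 22.8 and 23.2 in siControl, a difference of 0.93 ± 0.07 in siH1f0 over siJunb and of -0.60 ± 0.07 in siJunb over siControl. Brca1, a gene of homologous recombination, was 0.39 ± 0.08 higher on the log2 scale in siH1f0 than in siControl.

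Among 12 E2F and RB family genes E2f3, E2f7, E2f8 and the RB relative Rbl1 were called higher in siH1f0 over siJunb. E2f3, an activator of S phase genes, was at 56.8 and 55.6 CPM in siH1f0, 42.04 and 40.95 in siJunb, and 52.4 and 58.7 in siControl, a difference of 0.44 ± 0.07 in that comparison and of -0.42 ± 0.07 in siJunb over siControl. Of 15 other nucleotide supply genes 3 were called higher and 3 lower in siH1f0 over siJunb, with a median of -0.04, and 3 were called higher and none lower in siJunb over siControl (20.0%, edgeR), with a median of 0.05. The thymidine kinase gene Tk1 was higher in siH1f0 than in siJunb by 0.45 ± 0.05, while the difference of the folate enzyme gene Mthfd1 was -0.27 ± 0.05. Mthfd1 was also among the 3 higher in siJunb than in siControl, a difference of 0.20 ± 0.05. Of 12 other chromatin duplication genes 3 were called higher, among them the histone chaperone gene Nasp at 0.24 ± 0.06, and 1 lower, the FACT subunit gene Supt16 at -0.46 ± 0.05. Supt16 was also lower in siH1f0 than in siControl, a difference of -0.29 ± 0.05.

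Of 23 G2/M genes 14 were called higher and 1 lower in siH1f0 over siJunb (median 0.21), and 6 were called lower in siJunb over siControl (median -0.14). Foxm1, a transcription factor of G2/M genes, was at 145 and 146 CPM in siH1f0, 106 and 101 in siJunb, and 127 and 136 in siControl, a difference of 0.50 ± 0.06 in siH1f0 over siJunb. Top2a, the topoisomerase that untangles chromosomes, was called in all 3 comparisons, at 0.45 ± 0.05 in siH1f0 over siJunb, 0.23 ± 0.05 in siH1f0 over siControl and -0.22 ± 0.05 in siJunb over siControl. Of the 12 measured G1 cyclin and CDK inhibitor genes 1 was called higher and 5 lower in siH1f0 over siJunb, and 6 were called higher in siJunb over siControl. The cyclin D1 gene Ccnd1, whose protein opens G1 with Cdk4 or Cdk6, was at 6.61 and 7.05 CPM in siH1f0, 19.1 and 19.4 in siJunb, and 9.61 and 8.46 in siControl, a difference of -1.49 ± 0.09 in siH1f0 over siJunb and of 1.09 ± 0.09 in siJunb over siControl. Cdkn1a, which encodes the CDK inhibitor p21, was at 221 and 226 CPM in siH1f0, 336 and 328 in siJunb, and 325 and 304 in siControl, a difference of -0.49 ± 0.05 in siH1f0 over siControl.

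**Figure D5:**
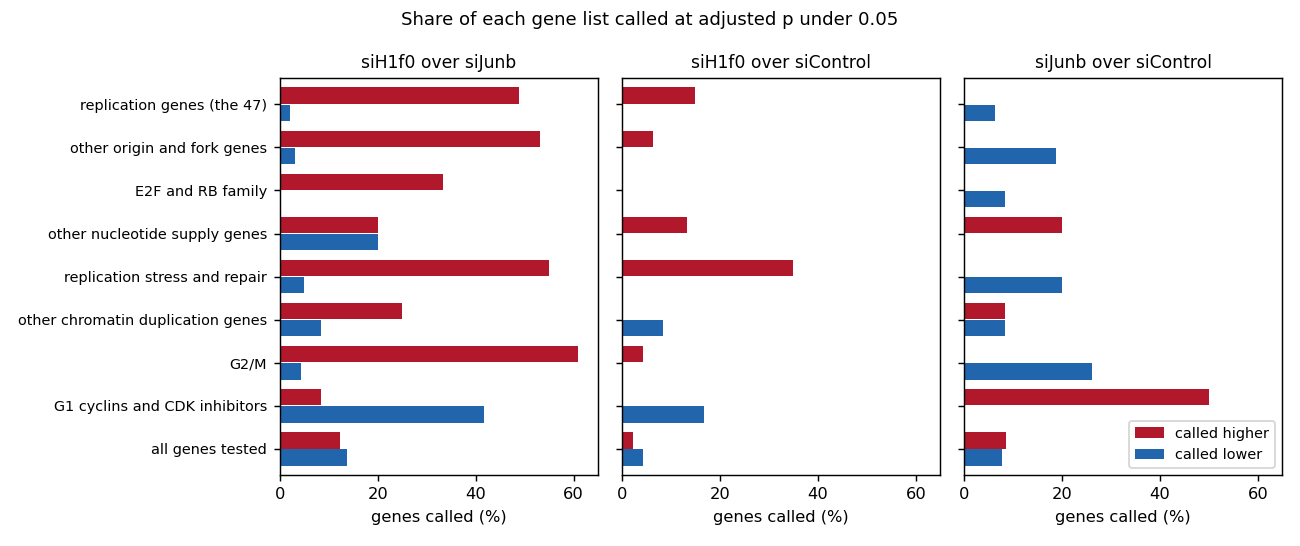
Share of each gene list called higher (red) or lower (blue) in the 3 comparisons (horizontal axis, % of the list's measured genes), with all genes tested in the bottom row. In siH1f0 over siJunb the bar for called higher reaches 48.9% for the 47 replication genes, 53.1% for other origin and fork genes and 60.9% for G2/M genes, while the bar for called lower reaches 41.7% for G1 cyclins and CDK inhibitors.

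Markers of other cell types were read for the same libraries. Of 8 cardiomyocyte markers 7 passed the filter, with Ryr2 at or near 0, and their summed level was 159 to 168 CPM in siH1f0, 121 to 122 CPM in siJunb and 143 to 162 CPM in siControl. Of 5 smooth muscle markers 4 passed, and their sum was 117 to 121 CPM in siH1f0, 82.9 to 84.7 CPM in siJunb and 65.6 to 71.3 CPM in siControl, most of it Acta2. The 9 fibroblast markers that passed contributed most of a summed level of 5095 to 5196 CPM in siH1f0, 5323 to 5331 CPM in siJunb and 5209 to 5329 CPM in siControl. Leukocyte markers summed to at most 15.7 CPM with Ptprc at 0, and 0 of 5 endothelial and 0 of 5 epithelial markers passed the filter. The cardiomyocyte sum, most of it Tnnt2 (94.2 to 108 CPM), was lowest in siJunb, and its ranges in siH1f0 and siControl overlapped. The smooth muscle sum was highest in siH1f0 and lowest in siControl, unlike the order of most replication genes. The part of these cell type markers in the differences was not tested.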

How the data were processed

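Poly(A)-selected RNA was sequenced from 6 libraries, 2 each of siH1f0, siJunb and siControl, and the sample labels gave groups and replicate numbers. The deposited table holds raw counts per gene symbol and a gene length column, used here for RPKM. The submitters' processing notes name HISAT2, Subread and featureCounts and the build mm10. Their versions, the annotation release and the strand setting are not stated in these sources. The groups are the same whichever harvest day holds.

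The main test was the edgeR 4.0.16 quasi-likelihood F test in R 4.3.3, after TMM scaling and the filterByExpr filter (minimum count of 10). Group was its single term over the 6 libraries, leaving 3 residual degrees of freedom. P-values were Benjamini-Hochberg adjusted over all 13427 genes and measure the spread between these libraries. CPM and RPKM were computed from the counts with TMM-scaled totals. With 2 libraries against 2 the smallest two-sided exact permutation p is 0.333, so single genes are called on spread shared across genes. The fit was first tested on simulated data whose changes were known, with the same spread in all 3 groups. That simulation therefore did not test the wider gap between the siControl libraries. Alternatives were RLE factors, library totals as the only scaling, no filter on counts, a 5 CPM mean as the filter, DESeq2 1.42.0, limma-voom (limma 3.58.1), fits of the 4 libraries compared, a replicate block and leaving each library out, which assumes that its lone partner varies like the rest.

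The 47 genes, the 7 further lists, the 6 marker lists, the motifs and the tests were chosen with earlier results of these data known. All 47 genes are accounted for, values per library are given for those called in any comparison, and up to 4 called genes per further list and comparison, by smallest p, could be named. Mcm3, Rrm2, Pcna, Rpa1, Rpa3 and Gins1 were added after their values were seen. Gene positions and promoters come from RefSeq GRCm38.p6 tables and overlaps from GENCODE M21. Each overlap percentage is a share of all GENCODE M21 exon bases of the gene, not of the length that was counted.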

Additional observations from a re-analysis of the deposited data

How the results depend on the processing

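No sign of a called gene reversed under any alternative, and RLE factors and limma-voom left the 3 counts of calls as they were (3, 7 and 24 for siJunb over siControl, siH1f0 over siControl and siH1f0 over siJunb). For siJunb over siControl the count was 8 with total counts only, 9 with no count filter, 5 with a mean of at least 5 CPM, 1 with only the 4 libraries compared, and from 0 to 22 with 1 library left out. For siH1f0 over siControl it was 2 with only the 4 libraries compared, and from 0 to 28 with 1 library left out. For siH1f0 over siJunb it was 38 with only the 4 libraries compared, 36 higher (76.6%) and 2 lower (4.26%). Each of the 3 counts also moved with 1 library left out. The all-gene shares moved too: in siH1f0 over siJunb 23.3% were called higher and 25.3% lower with only the 4 libraries compared. In siH1f0 over siControl the 2 genes called with only the 4 libraries compared were both higher (4.26% of the 47). Of all genes 0.487% were called higher and 1.95% lower in that fit. In siJunb over siControl the 1 gene called in such a fit was lower (2.13%), against 4.32% of all genes. The cause of these shifts was not tested, although leaving out a library also changes the estimated spread. The median log2 difference kept its sign throughout. In siJunb over siControl it was -0.095 with total counts only and ran from -0.0932 to -0.0313 with 1 library left out, in siH1f0 over siControl from 0.0761 to 0.14, and in siH1f0 over siJunb it was 0.21 with total counts only and ran from 0.13 to 0.18. The labels state no pairing of the replicate numbers. Deviations of same-numbered libraries correlated at 0.02 for siJunb with siControl, -0.16 for siH1f0 with siControl and 0.03 for siH1f0 with siJunb. These values cannot settle whether the samples were paired, as each group holds 2 libraries. With the replicate block 1 was called lower in siJunb over siControl (2.13%, against 6.08% of all genes). In siH1f0 over siControl 4 were called higher (8.51%, against 1.11%), and in siH1f0 over siJunb 18 were (38.3%, against 10.2%). With the numbers crossed between siH1f0 and siControl, an alternative chosen after seeing the data, 7 were called higher (14.9%, against 2.55%). The lowest count of the 47 genes in any library was 947, and the number of libraries per group limits what can be called.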
